A study of Homo sapiens with 6 samples.

Results

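Receptor tyrosine kinases were described as a family of 53 genes, taken by symbol out of the 27968 genes in the deposited tables. Members were chosen with earlier results of these data known, and were read in cultures of A549 and H23. These established human lines serve as models of lung adenocarcinoma, and no gene was edited and nothing was added to the cultures. The H23 group held 3 libraries of untreated cells grown in RPMI 1640 and the A549 group 3 of untreated cells grown in DMEM. All cells had 10% fetal bovine serum and were taken at about 80% confluence. Total RNA was sequenced from 6 stranded libraries depleted of ribosomal RNA, and the title of the study asks how the transcriptomes of the lines differ. Medium and line changed together, so they cannot be told apart, and each group stands for a single line.

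A receptor tyrosine kinase sits in the cell membrane, binds a ligand outside the cell, pairs with another receptor and phosphorylates tyrosines on its own tail and on other proteins. Adaptors such as GRB2 and SHC1 dock on these tyrosines and pass the signal to RAS, PI3 kinase and phospholipase C, while ubiquitin ligases, phosphatases and inhibitors such as ERRFI1 end it. In lung adenocarcinoma EGFR, MET, ALK, ROS1, RET and ERBB2 are known as drivers when mutated, amplified or fused, and AXL and MET are known from resistance to EGFR inhibitors. RNA levels report neither receptor protein nor its phosphorylation.

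The libraries held 29395795 to 42421642 expected counts in H23 and 23399562 to 25348083 in A549, and 3 counts in a single library stood for 0.0707 to 0.128 CPM (counts relative to library size). H23 replicate 1 stood apart from the other H23 libraries, with a chi-square per gene of 105 and 134 against 5.48 between H23 replicates 2 and 3 and 3.72 to 3.91 within A549. The sample titles do not say whether the libraries of a line came from separate cultures, so their spread may be less than that between cultures. The epithelial keratins KRT8 and KRT18 stood at 1320.13 or more in every library on the scale of TPM, transcript abundance scaled for length and depth. Of the 8 epithelial markers they belong to, 7 reached a mean of 1 TPM in each line. A mean of 10 TPM was reached by 3 of the 8 in H23 and 4 in A549. Among lung lineage markers, the surfactant genes SFTPA1, SFTPA2, SFTPB and SFTPC were at 0 to 0.14 TPM, and NKX2-1 was at 1.95 to 2.61 TPM in H23 and at 0 in A549. The lipid transporter ABCA3, at 4.73 to 9.48 TPM in H23 and 9.29 to 10.32 TPM in A549, made up most of the sum of these 9 markers, which was 9.42 to 14.8 and 10.0 to 11.3 TPM; 4 of them reached a mean of 1 TPM in H23 and 1 in A549. Of 8 blood cell markers, PTPRC, CD3E and HBB were at 0 to 0.01 TPM, while CD14 (2.38 to 4.94 TPM in H23 and 2.6 to 3.02 in A549) and CD68 (4.12 to 8.39 and 3.36 to 4.08 TPM) were read in both lines, and the list summed to 6.75 to 13.5 TPM in H23 and 5.96 to 6.74 TPM in A549. The endothelial markers PECAM1 and EMCN were at 0 to 0.01 TPM, while the endothelial factor ERG was at 2.28 to 2.66 TPM in H23 and at 0 in A549. Summed endothelial markers ranged over 6.14 to 10.2 TPM in H23 and 10.5 to 11.6 TPM in A549. Of these 9 markers, 2 reached a mean of 1 TPM in H23 and 1 in A549. The marker reached in A549 had a mean of at least 10 TPM there and was none of those named here.

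The ranking of receptors within a line used TPM, which is scaled for transcript length. A mean of at least 1 TPM was reached by 25 of the 53 receptors in H23 and by 20 in A549, against 45.9% and 43.5% of all genes in the tables. A mean of at least 10 TPM was reached by 12 and 13 receptors, against 26.4% and 24.0% of all genes, and 26 receptors stayed under 1 TPM in both lines. The summed level of the family was 428 to 576 TPM in H23 and 467 to 512 TPM in A549. RNAs under 200 bases took a larger part of the TPM in A549, as given below, so these cutoffs and sums are not alike between the lines.

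In H23 the ephrin receptor EPHA2 led with 115.58, 152.57 and 155.88 TPM as lowest, middle and highest library, and no other receptor reached its lowest value. The collagen receptor DDR1 came next by its mean, at 34.94 to 78.65 TPM. Its lowest library lay under every library of RYK, a WNT-binding receptor with an inactive kinase domain, at 47.35 to 50.35 TPM. That DDR1 library also lay under every MET library and under the highest PTK7 library, so the place of DDR1 was not fixed. MET, the receptor for hepatocyte growth factor, followed at 36.73 to 40.10 TPM, and PTK7, another pseudokinase of WNT signalling, at 20.12 to 35.77 TPM. From PTK7 down through AXL, EPHB4, IGF1R, ERBB2, FGFR4 and FGFR1, each neighbour overlapped the next, so their order was not fixed beyond the spread between libraries.

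In A549 the leading receptor was AXL, which binds GAS6, at 93.92 to 100.22 TPM. EPHA2, at 75.93 to 93.30 TPM, and MET, at 78.39 to 79.13 TPM, overlapped each other and stood above the remaining receptors. A gap followed, with the neighbours EGFR (25.80 to 32.80 TPM), EPHB4 (24.99 to 27.64 TPM), RYK (24.73 to 27.58 TPM) and DDR1 (23.47 to 25.88 TPM) overlapping in turn. EPHA2 and MET were among the 5 highest receptors of both lines, while AXL ranked 6 in H23 and 1 in A549, EGFR 13 and 4, PTK7 5 and 17, and DDR1 2 and 7.

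**Figure D1:**
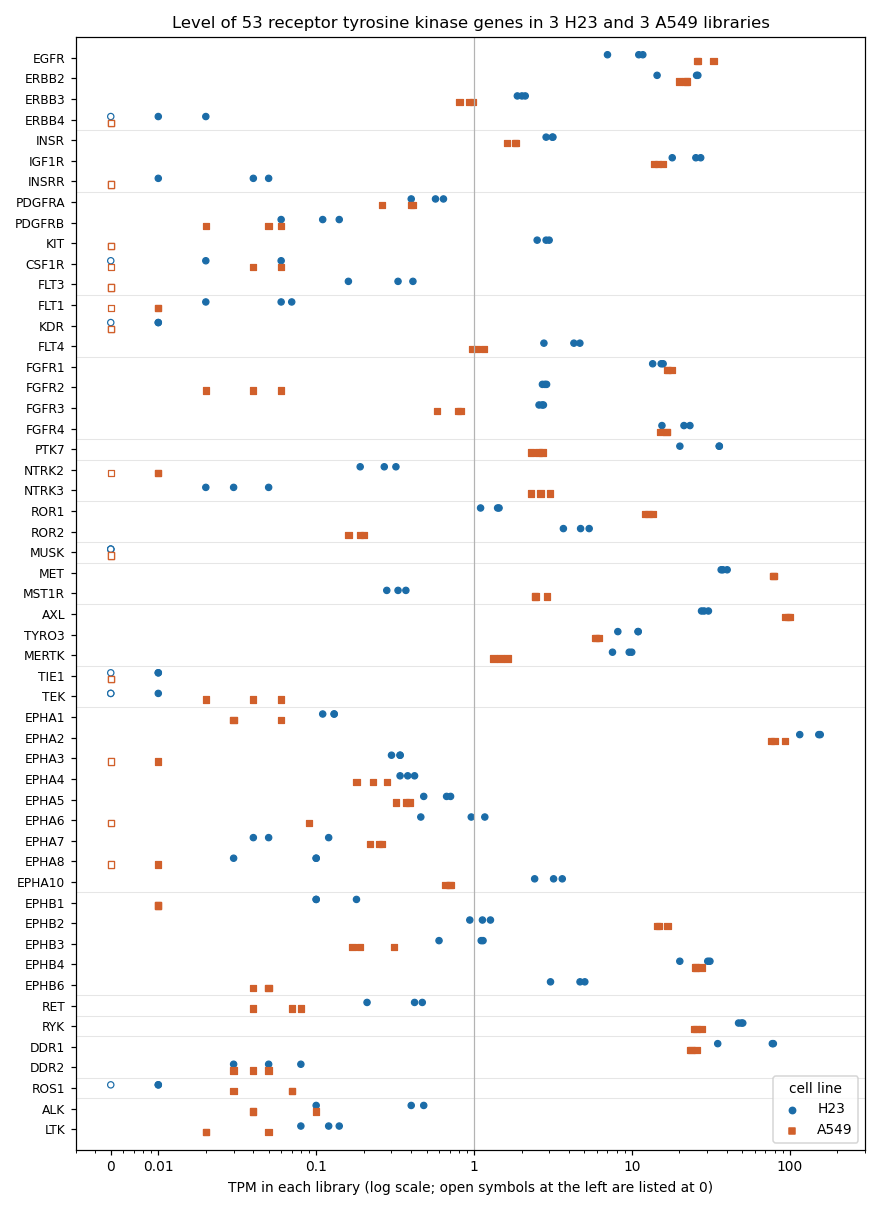
Each row is a receptor gene, the horizontal axis is its level in TPM on a log scale, and each point is a library, circles for 3 H23 and squares for 3 A549 libraries; open symbols at the left are listed at 0. EPHA2, MET and AXL lie furthest right in A549, KIT is at 0 in all 3 A549 libraries and near 3 TPM in H23, and 26 receptors lie under 1 TPM in both lines by their means.

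Levels between the lines were compared as CPM from the expected counts, normalised by TMM. TPM was not used for this because RNAs under 200 bases took 15.7 to 19.7% of the TPM in A549 and 0.112 to 0.242% in H23. Log2 folds are A549 over H23 with an approximate standard error, and a receptor was called at an adjusted p under 0.05 by the quasi-likelihood test of edgeR, adjusted over all genes tested by Benjamini-Hochberg. Of the 53 receptors, 38 passed the filter on low counts and 30 of these were called, 19 with the higher level in H23 and 11 in A549. Among all 15426 genes tested, 77.2% were called, with 37.6% of the genes on the A549 side and 39.6% on the H23 side, so most genes differed between these lines and the receptors' share lies near that of all genes. The median log2 fold was -0.31 over the receptors tested and -0.03 over all genes.

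The libraries of the lines did not overlap for 31 of the 38 receptors, against 82.0% of all genes. A call with an absolute log2 fold of at least 2 was reached by 18 receptors, against 25.5% of all genes. A receptor passed the filter in some cases only through the line in which it was high, so these counts describe the tested receptors and not the whole family. On the TPM scale, where the median of all genes shifted to -0.41, 8 receptors were called toward A549 and 25 toward H23, and 31.7% of all calls were higher in A549 in place of 48.7%. Without H23 replicate 1, 13 receptors were called toward A549 and 23 toward H23 among 39 tested. In bulk cultures, fewer cells carrying a transcript and less of it per cell cannot be told apart.

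**Figure D2:**
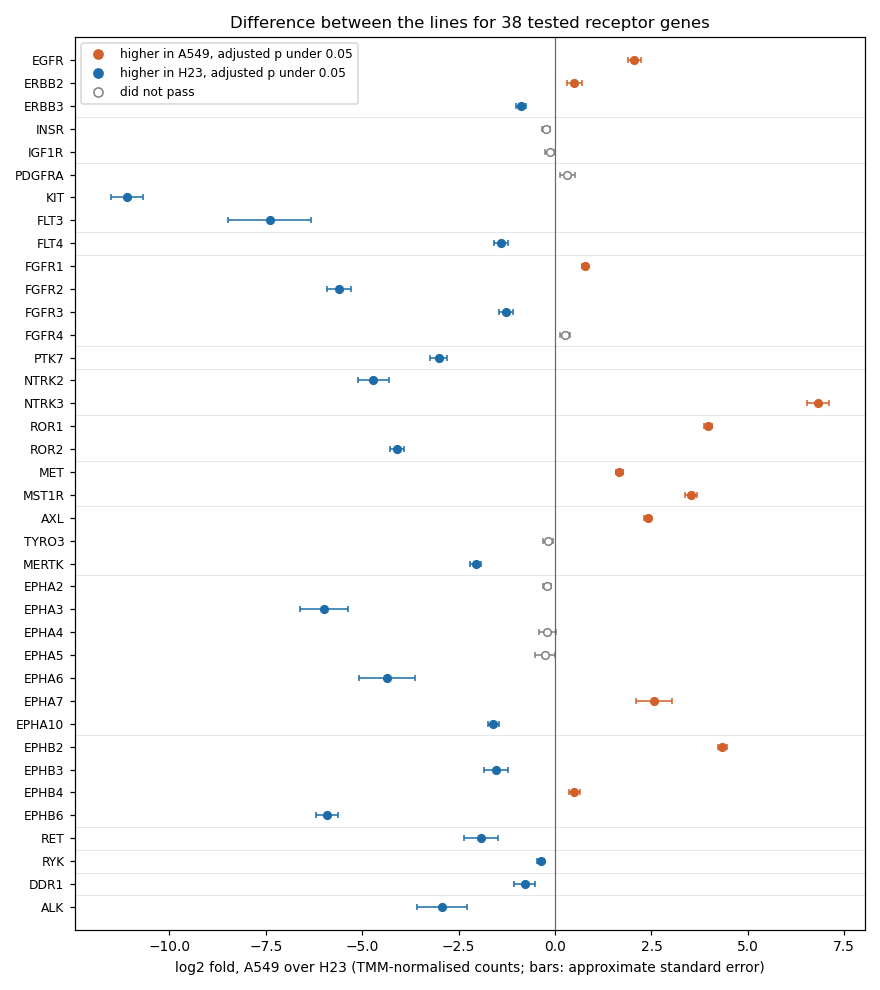
Each row is a tested receptor gene, the horizontal axis is the log2 fold of A549 over H23 from TMM-normalised counts, and the bars are approximate standard errors; orange is higher in A549, blue is higher in H23 and open grey did not pass. Of 38 receptors, 11 are orange and 19 blue, from KIT at -11.09, fitted against 0 counts in A549, to NTRK3 at 6.82.

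Among the ERBB receptors, which bind the EGF family of growth factors, EGFR had the largest fold. EGFR stood at 27.9, 41.0 and 42.1 CPM in the H23 libraries and at 146, 150 and 165 CPM in the A549 libraries. All A549 libraries lay above all H23 libraries, with H23 replicate 1 the lowest. The log2 fold was 2.06 ± 0.17 (edgeR adjusted p = 3.79e-05), or 4.16-fold. ERBB2, the partner receptor without a known ligand, had 62.8 ± 16.3 CPM in H23 and at 89.1 ± 3.37 in A549 (SD, n = 3 each), with 0.50 ± 0.19 as log2 fold at an edgeR adjusted p of 0.0464, and that call was lost on the TPM scale, with upper quartile factors, with a stricter count filter and without each A549 library in turn. ERBB3, whose kinase is nearly inactive and which binds neuregulins, was higher in H23 by 1.84-fold (log2 fold -0.88 ± 0.13). ERBB4 had 8 counts over the H23 libraries and 0 in A549 and was not tested.

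The insulin receptor family was not called. INSR had a log2 fold of -0.24 ± 0.11 and IGF1R, the receptor for insulin-like growth factors, -0.12 ± 0.13. The INSR libraries of the lines barely missed overlapping, with the lowest H23 and the highest A549 library both at 16.3 CPM. INSR passed in 5 alternatives, at log2 folds of -0.37 with upper quartile factors and -0.56 and -0.76 on the TPM scales. The others were -0.39 with a trend for GC content and length removed and -0.18 without H23 replicate 1. IGF1R passed on the TPM scales (-0.62 and -0.65) and without H23 replicate 1 (-0.25). It had 181 ± 29.4 CPM in H23 and 167 ± 5.73 CPM in A549. INSRR, an alkali-sensing relative, had 10 counts over H23 and 0 over A549.

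MET and its relative MST1R, the receptor for macrophage-stimulating protein, were both higher in A549. MET was at 157, 140 and 143 CPM in H23 and at 474, 474 and 451 CPM in A549. The groups lay apart, with the log2 fold at 1.67 ± 0.08 (edgeR adjusted p = 3.2e-06) and at 1.01 once a trend with GC content and length was removed. MST1R was at 0.925, 0.735 and 0.989 CPM in H23 and at 9.97, 9.95 and 11.1 CPM in A549, 11.6-fold higher (log2 fold 3.53 ± 0.16, edgeR adjusted p = 2.32e-06). In A549 this left MST1R at 2.44 to 2.89 TPM, far under MET at 78.39 to 79.13 TPM.

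The TAM receptors TYRO3, AXL and MERTK, which bind GAS6 and protein S and are known for the uptake of dying cells, took different directions. AXL was at 84.7, 76.0 and 73.2 CPM in H23 and at 421, 413 and 412 CPM in A549, and its log2 fold was 2.41 ± 0.09 (edgeR adjusted p = 9.83e-07). MERTK was at 17.7, 21.5 and 20.6 CPM in H23 and at 4.36, 5.43 and 4.57 CPM in A549, with a log2 fold of -2.06 ± 0.14 (edgeR adjusted p = 1.34e-05). Neither gene's libraries overlapped between the lines. TYRO3, at 24.2 ± 2.82 CPM in H23 and at 21.4 ± 1.11 CPM in A549, did not pass. It passed at log2 folds of -0.28 without H23 replicate 1, -0.31 with upper quartile factors and -0.64 and -0.72 on the TPM scales, and was at 0.07 with the GC and length trend removed. By TPM within a line, AXL was the most abundant of the 3 in every library of both lines.

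KIT, the receptor for stem cell factor, and FLT3, known from blood progenitors, were read in H23 and had 0 counts in A549. KIT was at 9.75, 9.29 and 7.79 CPM in H23, or 978 counts in all, and at 0 in each A549 library. Against a floor of 3 counts over the A549 group, H23 stood at least 214-fold above A549 (edgeR adjusted p = 1.56e-05). FLT3 was at 0.396, 0.936 and 0.753 CPM in H23 and at 0 in each A549 library, at least 16.4-fold above A549 on the same floor (edgeR adjusted p = 0.00214). Of the blood cell markers, PTPRC, CD3E and HBB were at 0 in H23 and CD14 and CD68 were not, as given above, and neither of the latter was called between the lines; their part in the KIT and FLT3 differences was not tested. PDGFRA, with 1.37 ± 0.175 CPM in H23 and at 1.70 ± 0.145 CPM in A549, did not pass. PDGFRB had 39 and 16 counts and CSF1R 7 and 8 counts over the H23 and A549 libraries, too few for the filter.

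Of the VEGF receptors, known from blood and lymph vessels, FLT4 ranged over 8.98 to 14.2 CPM in H23 and 4.27 to 4.74 CPM in A549, 2.64-fold higher in H23 (edgeR adjusted p = 0.000441). FLT1 had 15 counts over H23 and 2 over A549, a ratio of 4.92 with a 95% counting interval of 1.14 to 44.3. KDR had 3 and 0 counts. The angiopoietin receptors were also scarce, with 2 and 0 counts for TIE1 and 1 and 11 counts for TEK.

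The FGF receptors all passed the filter. FGFR2 was at 7.40, 6.45 and 6.71 CPM in H23 and at 0.208, 0.16 and 0.0431 CPM in A549, where it rested on 10 counts in all. Its log2 fold of -5.59 ± 0.31 corresponds to 48.2-fold (edgeR adjusted p = 6.44e-06). FGFR3 was 2.42-fold higher in H23 (log2 fold -1.27 ± 0.18). FGFR1 was 1.71-fold higher in A549, at 47.2 ± 2.01 CPM in H23 and at 80.7 ± 0.680 CPM in A549 (log2 fold 0.77 ± 0.08), and this call was lost on the TPM scale. FGFR4 did not pass, with 36.3 ± 6.06 CPM in H23 and at 43.6 ± 1.61 CPM in A549, but it did at a log2 fold of 0.50 with the GC and length trend removed and at 0.14 without H23 replicate 1.

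Among receptors tied to WNT signalling, PTK7, ROR2 and, by a small fold, RYK were higher in H23 and ROR1 was higher in A549. PTK7, a co-receptor of planar cell polarity, was at 53.8, 88.9 and 88.6 CPM in H23 and at 10.3, 8.99 and 9.40 CPM in A549, 8.06-fold higher in H23 (log2 fold -3.01 ± 0.22, edgeR adjusted p = 2.01e-05). ROR1 and ROR2, receptors for WNT5A, took opposite sides. ROR1 was at 3.75, 4.64 and 4.19 CPM in H23 and at 65.3, 64.2 and 66.3 CPM in A549 (log2 fold 3.96 ± 0.11, edgeR adjusted p = 4.36e-07). ROR2 was at 9.75, 13.1 and 11.5 CPM in H23 and at 0.748, 0.599 and 0.647 CPM in A549 (log2 fold -4.10 ± 0.19, edgeR adjusted p = 2.7e-06). On the length-scaled TPM, ROR2 stood above ROR1 in every H23 library and ROR1 above ROR2 in every A549 library. RYK was at 94.8, 81.5 and 84.8 CPM in H23 and at 67.4, 65.9 and 68.7 CPM in A549, a fold of only 1.29 that the libraries nonetheless separated without overlap (log2 fold -0.37 ± 0.09, edgeR adjusted p = 0.00636). With a trend for GC content and length removed, the log2 fold of RYK was -1.19.

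The neurotrophin receptors also took opposite sides. NTRK3, the receptor for neurotrophin 3, was at 0.106, 0.0668 and 0.0471 CPM in H23, 8 counts in all, and at 9.93, 8.95 and 7.16 CPM in A549, 629 counts in all. Its log2 fold of 6.82 ± 0.29 was the largest toward A549 among the receptors (edgeR adjusted p = 2.02e-06). NTRK2, the receptor for BDNF, had 132 counts in H23 and 3 in A549, a ratio of 28.8 with a 95% counting interval of 9.66 to 142. Of Schwann cell markers, SOX10 was at 0 to 0.03 TPM and S100B was listed at 0 in all libraries, while the neuronal SYT1 was at 0.90 to 2.51 TPM in H23 and 7.88 to 9.20 TPM in A549 and the astrocyte filament GFAP at 0.01 to 0.02 and 0.92 to 1.06 TPM. Both of these were called higher in A549, and their part in the NTRK3 difference was not tested.

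Ephrin receptors meet membrane-bound ephrins on neighbouring cells and steer cell contact and repulsion. Of 14 such receptors 11 were tested and 8 called, against 77.2% of all genes, with 3 toward A549 and 5 toward H23. EPHA2, the most abundant of them in both lines, was at 299, 370 and 361 CPM in H23 and at 276, 294 and 321 CPM in A549. These ranges overlapped and the log2 fold of -0.21 ± 0.11 did not pass (edgeR adjusted p = 0.119), although it passed at -0.30 without H23 replicate 1, at -0.34 with upper quartile factors and at -0.75 and -0.76 on the TPM scales, and was at 0.03 with the GC and length trend removed. EPHB2 was at 6.95, 7.65 and 8.54 CPM in H23 and at 149, 156 and 165 CPM in A549, 20.3-fold higher in A549 (log2 fold 4.34 ± 0.11, edgeR adjusted p = 3.67e-07). EPHB6, whose kinase is inactive, was at 7.11, 10.9 and 10.1 CPM in H23 and at 0.166, 0.16 and 0.129 CPM in A549, 60.1-fold higher in H23 (log2 fold -5.91 ± 0.29, edgeR adjusted p = 3.62e-06).

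EPHB4, the partner of ephrin B2, was at 57.2, 78.6 and 81.0 CPM in H23 and at 99.5, 103 and 104 CPM in A549. The lines did not overlap, with a log2 fold of 0.50 ± 0.14 (edgeR adjusted p = 0.014) that turned to -0.03 and did not pass on the TPM scale. The remaining ephrin receptors were scarce, all under 4 TPM. EPHA3 had 126 counts in H23 and 1 in A549, and EPHA6 had 104 and 3, ratios of 82.6 (95% counting interval 14.6 to 3290) and 22.7 (7.56 to 112). H23 also had more EPHA10 (log2 fold -1.60 ± 0.15) and EPHB3 (log2 fold -1.52 ± 0.31). EPHA7 stood higher in A549 (log2 fold 2.56 ± 0.47). Its log2 fold was 1.32 with the GC and length trend removed and 3.24 without H23 replicate 1. EPHA4 (log2 fold -0.20) and EPHA5 (-0.25) did not pass, but with that trend removed both did, at -0.62 and -1.25, as they did on the TPM scales. EPHA1, EPHA8 and EPHB1 were not tested.

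DDR1, which binds fibrillar collagen, was at 79.1, 174 and 171 CPM in H23 and at 79.3, 81.5 and 83.2 CPM in A549. H23 replicate 1 lay with the A549 libraries and under all of them, while the other H23 libraries lay above, so the lines overlapped. The log2 fold was -0.79 ± 0.28 (edgeR adjusted p = 0.0364). Without H23 replicate 1 it was -1.08 (edgeR adjusted p = 7.31e-18), and without each of the other libraries in turn the call was lost, with edgeR adjusted p from 0.0925 to 0.114. DDR2 had 34 and 24 counts and was not tested.

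The receptors best known in lung cancer as fusion partners were scarce in both lines. RET was at 1.12 ± 0.456 CPM in H23 and at 0.292 ± 0.0805 CPM in A549 (log2 fold -1.93 ± 0.44, edgeR adjusted p = 0.00575), and ALK at 0.980 ± 0.510 and 0.126 ± 0.0774 CPM (log2 fold -2.93 ± 0.66, edgeR adjusted p = 0.00528). ROS1 had 2 counts over H23 and 28 over A549, and LTK 22 and 5. MUSK, the agrin receptor of the nerve-muscle junction, had 0 counts in all 6 libraries.

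Transcript shares within a gene were then compared, since splicing changes what some receptors bind or how they are shed. The sequences shown here tell apart pairs of RefSeq transcripts and were taken from GENCODE transcripts on GRCh38, 5′ to 3′ on the strand of the gene; capitals mark the segment present in the longer transcript and absent from the shorter, with the 15 adjoining transcript bases on each side, and all 4 segments are coding. The INSR segment is exon 11, 36 bases at chr19:7150497-7150532 on the minus strand, whose absence gives the isoform known to bind IGF2 tightly. The AXL segment is exon 10, 27 bases at chr19:41239694-41239720 on the plus strand. The RYK segment is 9 bases of exon 8 at chr3:134191975-134191983 on the minus strand. The KIT segment is 12 bases at the end of exon 9, chr4:54726039-54726050 on the plus strand, known as the GNNK insert.
INSR exon 11: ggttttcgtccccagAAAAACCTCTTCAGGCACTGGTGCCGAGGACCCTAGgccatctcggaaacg
AXL exon 10: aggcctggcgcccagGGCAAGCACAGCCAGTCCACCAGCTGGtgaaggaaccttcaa
RYK exon 8 part: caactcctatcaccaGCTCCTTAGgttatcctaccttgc
KIT exon 9 end: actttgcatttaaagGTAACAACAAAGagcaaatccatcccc

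Of 23 receptors with at least 2 testable transcripts, 9 passed edgeR's diffSpliceDGE gene-level test, against 25.8% of the 7539 genes tested. Shares are the deposited percentages of each gene's transcripts, which RSEM estimated from reads that mostly fit several transcripts, and the tables hold no reads across single splice junctions. In AXL, INSR, EGFR and MET a transcript changed by at least 20 percentage points. The other 5 were FGFR1, EPHB2, RYK, ROR1 and DDR1. DDR1 is listed as 51 transcript entries with 9 names, copies that the tables mark with a suffix, so its call compares copies of like sequence. ROR1 (edgeR adjusted p = 0.0288) was lost with the replicate number as a block, by the Simes version of the test, without H23 replicate 3 and without each A549 library in turn (0.102 to 1), and EPHB2 by the Simes version (0.0925).

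AXL's long transcript with the exon 10 segment (NM_021913) took 0% in each H23 library and 55.90, 50.72 and 53.93% in the A549 libraries. NM_001278599 was estimated at 78.69, 48.16 and 45.35% in H23 and at 0.63, 0.68 and 0.41% in A549. That form also holds exon 10 but has 17 exons against 20 and 1878 coding bases against 2682, and it shares exons with the long form only from exon 5 on. The long form without the segment (NM_001699) took 21.31, 51.84 and 54.65% in H23 and 43.47, 48.60 and 45.65% in A549. Added up, transcripts with exon 10 took 45.35 to 78.69% in H23 and 51.40 to 56.53% in A549, ranges that overlapped. The gene-level usage test (edgeR adjusted p = 1.29e-09) covers all 3 transcripts, of which the long form with exon 10 and the short form did not overlap between the lines. H23 replicate 1 held the most of the short form.

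INSR with exon 11 (NM_000208) took 0% in each H23 library, on 740, 488 and 763 counts of the form without it, and 65.97, 60.95 and 98.82% in the A549 libraries, on 225, 249 and 347 counts. The form lacking exon 11 (NM_001079817) was therefore the sole INSR transcript estimated in H23 (edgeR adjusted p = 0.00115). A549 replicate 3 stood apart from the other A549 libraries. At the gene level the INSR fold was small, as given above.

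EGFR's full-length transcript NM_005228, of 6353 bases, took 39.95, 50.73 and 25.05% in H23 and 87.47, 89.73 and 84.00% in A549 (edgeR adjusted p = 0.000564). NM_001346941, of 5552 bases, took 36.14, 21.64 and 26.85% in H23, on 351, 240 and 447 estimated counts, and 0 in each A549 library. RefSeq lists this transcript as the EGFRvIII form, which lacks exons of the ligand-binding part; reads unique to it cannot be counted from these tables, so its presence in H23 was not tested. NM_001346900 took 23.91, 27.63 and 46.04% in H23 and 7.38, 4.97 and 0% in A549. The H23 shares varied widely between libraries, while the full-length form led in every A549 library.

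MET's transcript NM_000245, of 6637 bases, took 37.09, 72.98 and 68.13% in H23 and 87.44, 88.64 and 91.61% in A549, and NM_001324402, of 5454 bases, took 59.68, 25.17 and 29.83% in H23 and 9.11, 7.65 and 5.44% in A549. H23 replicate 1 was the H23 library with the most of the shorter form. The MET call (edgeR adjusted p = 0.00384) was lost without A549 replicate 2 (0.0529) and without A549 replicate 3 (0.0517). The same H23 library also held more of the shorter EPHA2 form NM_001329090, 29.11% against 7.26 and 5.24% in the other H23 libraries and 4.65 to 5.78% in A549.

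RYK with the 9-base segment (NM_001005861) took 42.43, 46.30 and 45.41% in H23 and 61.21, 60.88 and 57.25% in A549 (edgeR adjusted p = 0.00696), a change of 15.1 points without overlap of the libraries, which did not pass by the Simes version of the test (0.809), with the replicate number as a block (0.0574) or without A549 replicate 1 (0.0578) or 2 (0.0542). KIT, read in H23 alone, was mostly the form without the GNNK insert (NM_001093772), at 69.78, 100 and 87.64%. NTRK3 in A549 divided over several transcripts, of which NM_001007156, a form that ends before the kinase domain, took 33.18, 48.06 and 13.55%.

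**Figure D3:**
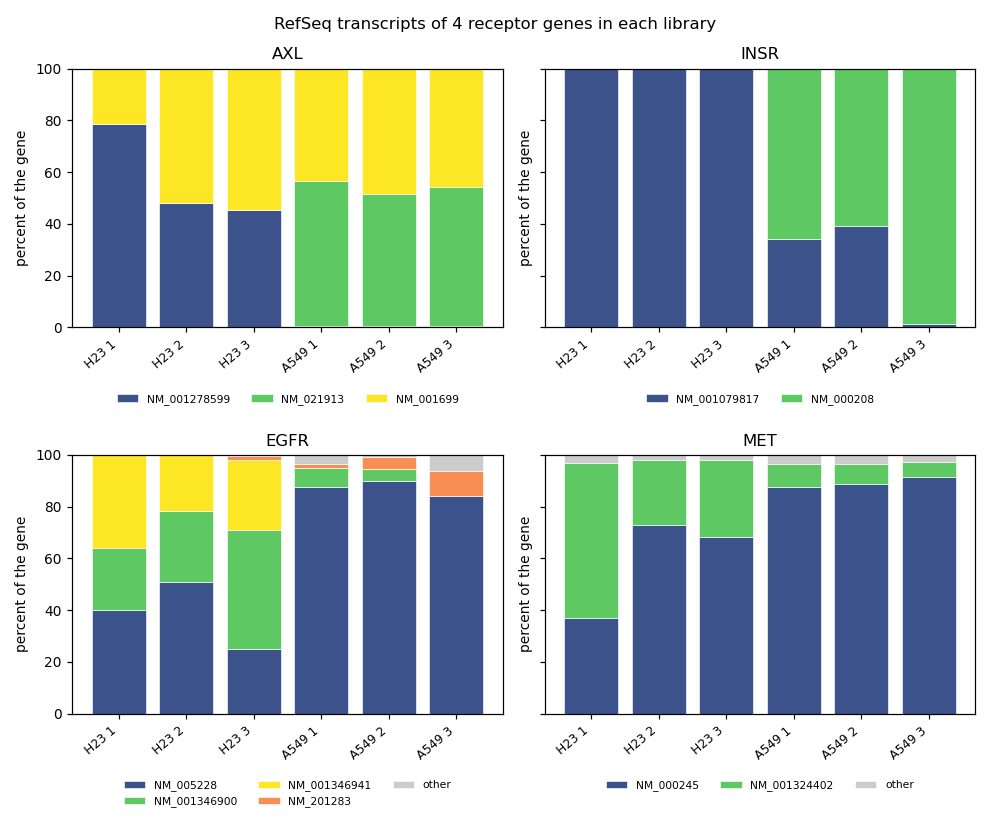
Each panel is a receptor gene, each bar a library and the vertical axis the percent of the gene's transcripts carried by each RefSeq transcript, as deposited; transcripts under 5% in every library are pooled as other. NM_021913 of AXL and NM_000208 of INSR appear in the A549 bars only, and NM_001346941 of EGFR makes up 21.64 to 36.14% in H23 and 0 in A549.

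The receptors' ligands were read from a list of 79 genes, 76 of them in the tables, of which 51 were tested and 44 called, 19 toward A549 and 25 toward H23, beside 77.2% of all genes. Their median log2 fold was -0.21. Of 11 EGF family ligands, 10 were tested, 6 were higher in A549 and 1 in H23. EREG (epiregulin) had 18.9 ± 3.04 CPM in the H23 libraries and 321 ± 17.7 CPM in those of A549 (log2 fold 4.09 ± 0.14, and 2.99 with the GC and length trend removed). AREG (amphiregulin) was at 12.7 ± 1.99 and 86.6 ± 1.59 CPM and TGFA at 3.80 ± 0.379 and 21.2 ± 1.10 CPM, while EGF and BTC were higher in A549 from levels under 0.3 CPM in H23 (log2 folds 4.49 and 4.40, and 3.84 and 3.5 with that trend removed). EPGN (epigen) went the other way, at 9.75 ± 2.56 CPM in H23 and at 0.0820 ± 0.0384 CPM in A549 (log2 fold -6.81 ± 0.38), and HBEGF did not pass except on the TPM scales (-0.39 and -0.55). EGFR and 5 of its 7 ligands listed were thus higher in A549.

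Other ligands lay on either side of their receptors. KITLG, the ligand of KIT, was at 1.88 ± 0.927 CPM in H23 and at 21.5 ± 1.46 CPM in A549, where KIT itself had 0 counts (log2 fold 3.51 ± 0.32, and 2.47 with the GC and length trend removed). HGF, the ligand of MET, was at 2.16 ± 0.770 CPM in H23 and at 0.111 ± 0.0244 CPM in A549 (log2 fold -4.24 ± 0.42, and -5.10 with that trend removed), opposite to MET. WNT5A was at 3.18 ± 1.12 CPM in H23 and at 0.247 ± 0.140 CPM in A549 (log2 fold -3.66 ± 0.44), on the side of ROR2 and opposite to ROR1. GAS6 was 10.1 ± 0.792 and 6.94 ± 0.0875 CPM, on the side of MERTK and opposite to AXL. PROS1 and MST1 did not pass, although PROS1 did with the GC and length trend removed (-0.87) and on the TPM scales (-0.50 and -0.54). FLT3LG was higher in H23, as was FLT3 (log2 fold -1.33 ± 0.33), and this call was lost with that trend removed (-0.86, edgeR adjusted p = 0.0516). FGF1, FGF7, FGF10 and NTF3 were too low to test.

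The ligands with the largest folds toward A549 among those of at least 1 TPM there were PDGFD, at 0.628 ± 0.194 CPM in H23 and at 50.1 ± 2.12 CPM in A549, COL4A1, a basement membrane collagen that DDR1 binds, at 5.10 ± 0.717 and 203 ± 7.87 CPM, and FGF2, at 7.45 ± 3.12 and 190 ± 4.09 CPM (log2 fold 4.67, and 4.0 with the GC and length trend removed). Those toward H23 were FGF20, at 0 counts in A549 and at least 23.6-fold above that floor in H23, and ARTN, a ligand of the RET complex, at 14.9 ± 3.61 and 0.0809 ± 0.105 CPM (log2 fold -7.42, and -6.82 with that trend removed). All 3 tested RET ligands were higher in H23. Of 8 ephrins, 7 were called, 6 of them higher in H23 and 1, EFNA5, higher in A549. Of all genes tested, 77.2% were called and 39.6% were called higher in H23.

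Among co-receptors, which present ligands to the kinases, 17 of 22 were tested and 16 called, 8 in each direction, against 77.2% of all genes. NRP1 and NRP2, the neuropilins that bind VEGF, had 6.33 ± 0.550 and 1.19 ± 0.207 CPM in H23 against 512 ± 4.74 and 192 ± 16 CPM in A549 (log2 folds 6.34 ± 0.11 and 7.34 ± 0.17). GFRA1, the GDNF co-receptor of RET, was at 0.277 ± 0.119 and 55.5 ± 1.29 CPM (log2 fold 7.69 ± 0.23), while RET was lower in A549. The heparan sulfate proteoglycans GPC4 and GPC3 were at 21.9 ± 2.72 and 17.1 ± 2.66 CPM in H23 against 0 counts in A549, which puts H23 at least 532-fold and 411-fold above. NGFR, the low-affinity neurotrophin receptor, was also higher in H23 (log2 fold -5.39 ± 0.30).

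Adaptors and docking proteins divided evenly, with 33 of 42 tested genes called, 17 higher in A549 and 16 in H23, and a median log2 fold of 0.10. This share of 78.6% lay near the 77.2% called among all genes. STAT5A, a transcription factor phosphorylated by receptor kinases, was at 0.508 ± 0.172 CPM in H23 and at 12.5 ± 0.0999 CPM in A549, and GRB10, an inhibitory adaptor of the insulin receptor, at 14.5 ± 3.44 and 120 ± 3.29 CPM. DOK4 followed at 14.3 ± 1.67 and 86.4 ± 1.39 CPM. Toward H23 the largest were DOK5, with 2 counts in A549 and a ratio of 122 (95% counting interval 33.4 to 1010), PIK3R3, a regulatory subunit of PI3 kinase (log2 fold -2.44 ± 0.11), and SHC2 (-2.44 ± 0.42). The common adaptor GRB2 was lower in A549 by a small fold, at 169 CPM in H23 and at 129 CPM in A549 (log2 fold -0.39 ± 0.09).

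Negative regulators had 26 of 32 tested genes called, 16 higher in A549 and 10 in H23, with a median log2 fold of 0.53. Their share of 81.2% lay near the 77.2% called among all genes. PTPRJ, a phosphatase that acts on several receptors, was at 18.7 ± 2.13 CPM in H23 and at 171 ± 0.499 CPM in A549, SOCS6 at 21.5 ± 1.72 and 131 ± 2.90 CPM (log2 fold 2.6, and 1.73 with the GC and length trend removed), and SH3KBP1, which links CBL to receptor uptake, at 26.7 ± 1.37 and 118 ± 0.910 CPM. Those higher in H23 included the EGFR inhibitor ERRFI1, at 487 ± 89.4 and 93.8 ± 4.35 CPM (log2 fold -2.38 ± 0.15), and the ubiquitin ligase CBL, at 123 ± 22.7 and 31.1 ± 1.66 CPM (log2 fold -1.98 ± 0.15), both of which act on EGFR, the receptor higher in A549. SOCS1 was also higher in H23, from a low level (log2 fold -3.44 ± 0.39, and -2.80 with that trend removed).

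Of 17 proteases that cut receptors or release their ligands, 15 were called, against 77.2% of all genes. Of these, 9 were higher in A549 and 6 in H23, and the median log2 fold of the list was 0.61. RHBDL2, a membrane protease that cuts EGF, was at 0.0559 ± 0.0751 CPM in H23 and at 4.09 ± 0.502 CPM in A549, ADAM19 at 4.04 ± 0.0377 and 53.4 ± 3.05 CPM, and ADAM9 at 69.1 ± 30.0 and 565 ± 9.03 CPM (log2 fold 3.03 ± 0.29, and 2.03 with the GC and length trend removed). ADAM17, the main sheddase of EGFR ligands, differed in the same direction, by a log2 fold of 1.03 ± 0.08. NCSTN, a subunit of gamma-secretase, was at 219 ± 53.6 CPM in H23 and at 21.8 ± 1.54 CPM in A549 (log2 fold -3.33 ± 0.20), while of the 6 gamma-secretase subunits 3 were higher in A549, 2 in H23 and 1 did not pass. MMP14 and ADAM15 were higher in H23 (log2 folds -1.60 ± 0.16 and -1.41 ± 0.13).

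**Figure D4:**
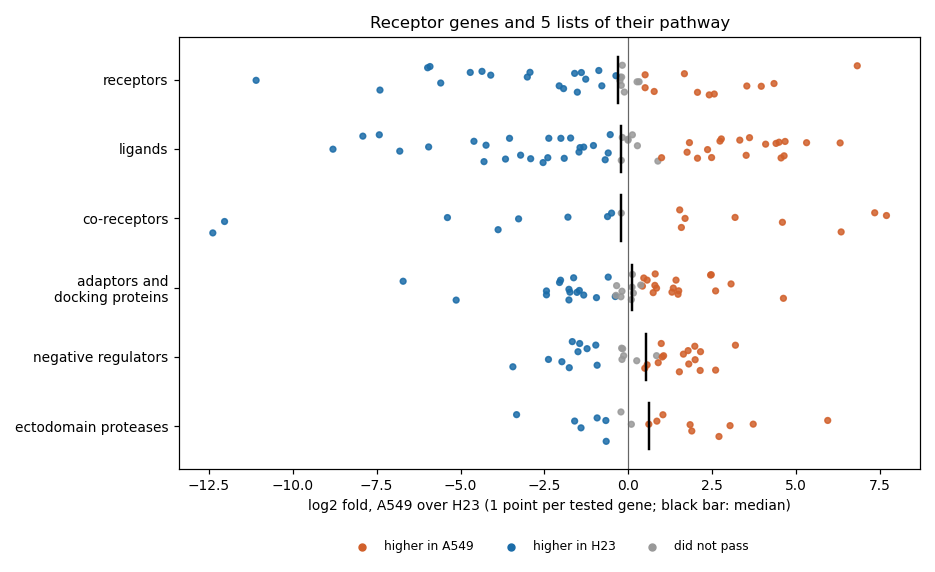
Each point is a tested gene, placed by its log2 fold of A549 over H23 and by its list, with vertical jitter for legibility; orange is higher in A549, blue higher in H23 and grey did not pass, and the black bar is the list's median. The medians run from -0.31 for the receptors to 0.61 for the ectodomain proteases, and the co-receptors reach furthest, from GPC4 at -12.38, fitted against 0 counts in A549, to GFRA1 at 7.69.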

How the data were processed

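Total RNA of H23 and A549 cultures was sequenced in 3 libraries per line, and a gene table and a transcript table in RSEM's layout were deposited for each library. The submitters' processing notes name STAR 2.6.0c, RSEM 1.3.0 and hg19; the annotation release and the strand setting are not given in the sources used here. The deposited expected counts are RSEM estimates of reads, unscaled, for genes and for transcripts. TPM, as deposited, is scaled for length and depth. The deposited FPKM values were used for column sums only. The deposited percent values are each transcript's share of its gene. The tables hold no coordinates; positions are those of GENCODE v29 on GRCh38, matched by RefSeq identifier.

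Rounded expected counts entered edgeR 4.0.16 (R 4.3.3): filterByExpr, TMM factors of 0.985 to 1.02, robust quasi-likelihood F test, Benjamini-Hochberg adjustment over 15426 genes, threshold 0.05. Standard errors were approximated by dividing the absolute log2 fold by the root of F. The biological coefficient of variation was 0.168 in common. An exact test of 3 libraries against 3 has too few orderings to reach 0.05, so calls rest on this model. Folds against 0 counts use a floor of 3 counts over the group, and ratios on 1 to 3 counts carry a 95% interval, both for counting error alone. Transcript usage was tested with diffSpliceDGE on 24779 transcripts of 7539 genes. Reads shared by paralogs or transcripts were divided by RSEM, and that error is not in the tests. Tests were also run on simulated counts in which most genes were unchanged and no library stood apart. Their error rate on data like these was not tested.

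Members and gene lists were chosen with earlier results of these data known, so lists are given by counts and medians only. Values in every library are given for called receptors with an absolute log2 fold of at least 2 and a mean of 1 TPM or more in the higher line, for the 5 highest in each line, and for called receptors at 0 counts in a line. From each pathway list up to 3 genes per direction with the largest fold and at least 1 TPM are named, with ligands paired to those receptors; any further pathway gene was picked with its values known. Alternatives were RLE and upper quartile factors, DESeq2 1.42.0, other filters, limma 3.58.1 on log2(TPM + 1) and log2(TPM + 0.1), a replicate block, removal of a GC and length trend, and leaving out each library. Protein sequences were not analysed here. One gene of the marker lists is not reported here.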

Additional observations from a re-analysis of the deposited data

How the results depend on the processing

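Of the 30 receptors called, 26 kept their call in each of the 15 alternatives that tested them; the others were ERBB2, FGFR1, EPHB4 and DDR1. With a minimum count of 50, 28 receptors were tested and 12 were higher in H23 in place of 19. The count of all genes called ranged from 10349 with that filter to 13774 without H23 replicate 1. The labels do not say what the library numbers stand for. Same-numbered libraries deviated from their line's mean with correlations of 0.025, -0.0389 and 0.0544, and pairs of unlike number with -0.0528 to 0.0292. So few pairs, with H23 replicate 1 standing apart, cannot show whether same-numbered libraries shared a batch. With the number as a replicate block, 11 receptors were higher in A549 and 19 in H23, as without it, while 7 receptors in place of 9 passed the usage test, RYK (0.0574) and ROR1 (0.102) being lost, and 1249 in place of 1944 genes passed it over all. The Simes version called 6 receptors.

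Direction turned for genes with small folds. On log2(TPM + 1) and log2(TPM + 0.1), log2 folds were -0.18 and -0.48 for PDGFRA, -0.28 and -0.29 for FGFR4, -0.03 and -0.03 for EPHB4 and -0.07 and -0.19 for MST1. With the GC and length trend removed they were 0.07 for TYRO3, 0.03 for EPHA2 and 0.04 for HBEGF. EPHA5 ranged from -0.44 to 0.05 with a replicate left out, the last without H23 replicate 1. HBEGF was at 0.003 without the filter and ranged from -0.14 to 0.09 with a replicate left out, at 0.09 and 0.06 without A549 replicates 1 and 2. PROS1 was at 0.00068 with RLE factors, 0.00039 with DESeq2, 0.0037 without the filter, 0.00028 with the replicate block, and ranged from -0.09 to 0.13 with a replicate left out, at 0.13 without H23 replicate 1 and 0.02 and 0.0082 without A549 replicates 1 and 2. Apart from EPHB4, none of these passed the test in the main analysis or in the alternative that turned it. The cause was not tested. The depth limits 15 receptors too low to test, and EPHA6 and EPHA3 rest in A549 on counts of 3 and 1, found in replicate 3 alone.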

Other observations

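Antisense genes named for a receptor were in the tables for 5 receptors, EGFR, EPHA1, EPHA5, NTRK3 and ROR1. EGFR-AS1 had 0.0494 ± 0.0476 CPM in H23 against 1.72 ± 0.544 CPM in A549 (log2 fold 4.89 ± 0.56, edgeR adjusted p = 0.000189), on the same side as EGFR. NTRK3-AS1 had 0 counts in H23 and 9 in A549, where NTRK3 had 629. EPHA1-AS1, EPHA5-AS1 and ROR1-AS1 were also too low to test. All 5 were under 1 TPM in the mean of either line, and reads of a gene and its antisense partner can be told apart only if the counting used the strand, which the sources used here do not state.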
